A study of Mus musculus with 6 samples.

Results

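The V segments of the T cell receptor alpha chain (Trav genes) were measured by RNA sequencing in CD4+ T cells of control mice and of mice with a T cell deletion of Satb1, a chromatin-organising protein of T lineage cells. Members were taken by name, as every gene of the count tables whose symbol starts with Trav followed by a digit, which gave 128 of 55401 genes. All lie on chromosome 14 in GENCODE M21 (GRCm38), on the plus strand, from 243 to 1792 kb upstream of the constant region gene Trac (14, 54220521 to 54224206). They belong to 23 V families, and 108 are annotated as V genes and 20 as V pseudogenes. The symbols of 10 segments carry a dv suffix, which marks segments shared with the delta chain. The array contains a duplicated central block: 39 segments carry a d and 34 an n in their symbol as copies of this block, and 55 carry neither.

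The control group held 3 libraries from mice labelled WT, and the knockout group 3 libraries from Satb1 flox/flox mice with CD4-Cre, called Satb1 cKO here. Cre driven by Cd4 regulatory sequences acts from the thymic stage at which T cells first express Cd4. In both groups naive CD4+ T cells were taken from spleen with magnetic beads and activated through CD3 and CD28 for 24 hours. Whether control mice carried Cre, and whether each library stands for a mouse of its own, is not in the labels. The p-values therefore rest on the spread among these samples alone, and that spread may be technical.

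A T cell receptor alpha chain is made by V(D)J recombination in the thymus: the RAG recombinase joins 1 V segment to 1 J segment, and splicing connects the product to Trac. In developing thymocytes the joining can be repeated on the same allele. The first joins tend to use V segments close to the J segments, and later rounds replace them with segments lying farther upstream. Reads on a V segment in bulk RNA therefore reflect how many cells carry that segment and how much each cell transcribes it, and these cannot be told apart. Counts also do not separate rearranged from unrearranged transcripts.

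The ends of 7 segments to which the results return, chosen after their values were seen, show what distinguishes one V segment from another. Each is given as the last 90 coding bases, 5′ to 3′ on the plus strand of GRCm38, read from the GENCODE M21 transcripts. Capitals mark the codon of the conserved cysteine (TGT or TGC), which opens the complementarity-determining region CDR3. The first 4 lie nearer to Trac, and the last 3 lie at the far end of the array.
Trav17 (chr14:53807026-53807115): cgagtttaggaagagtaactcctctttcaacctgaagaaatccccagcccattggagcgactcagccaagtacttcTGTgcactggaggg
Trav4-4-dv10 (chr14:53684088-53684177): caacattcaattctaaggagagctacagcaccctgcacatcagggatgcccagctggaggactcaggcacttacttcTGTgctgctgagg
Trav16 (chr14:53743616-53743705): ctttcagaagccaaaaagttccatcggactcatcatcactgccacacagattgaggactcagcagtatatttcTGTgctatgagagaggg
Trav14-3 (chr14:53763605-53763694): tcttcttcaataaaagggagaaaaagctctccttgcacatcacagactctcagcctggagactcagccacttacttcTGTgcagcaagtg
Trav7-1 (chr14:52655239-52655328): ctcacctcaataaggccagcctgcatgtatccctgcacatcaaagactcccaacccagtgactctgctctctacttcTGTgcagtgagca
Trav2 (chr14:52567962-52568051): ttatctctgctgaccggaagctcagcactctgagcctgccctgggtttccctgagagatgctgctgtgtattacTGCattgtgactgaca
Trav1 (chr14:52428787-52428876): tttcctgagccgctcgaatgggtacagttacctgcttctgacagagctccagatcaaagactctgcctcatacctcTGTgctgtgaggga
All 108 segments with a coding last exon held an in-frame TGT or TGC. The last one was taken without a check of its position, so the count does not show the conserved cysteine in each. In Trav17 the marked codon lay 14 bases from the segment's end and in Trav16 17 bases.

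The libraries held 14895389 to 20266626 reads on genes, of which 2104 to 3075 fell on Trav segments. Levels are given in CPM, the read count relative to the TMM-scaled library size, with the SD over n = 3 libraries. The targeted gene Satb1 fell from 762 ± 76.4 to 477 ± 61.5 CPM (log2 fold change -0.68), counted over the whole gene. The T cell markers Cd3e (154 and 143 CPM) and Trac (284 and 247 CPM) were high in both groups, and Cd4 fell from 700.0 ± 19.9 to 208 ± 4.05 CPM. Markers of red cells and myeloid cells were higher in Satb1 cKO. The summed level of 4 red cell genes was 22.6 to 28.4 CPM in control and 280.0 to 1628 CPM in Satb1 cKO, and that of 6 myeloid genes 15.1 to 17.2 and 57.9 to 129 CPM. All members of both lists were called higher, as were 21.6% of all genes tested. Of 5 tested B cell genes 2 were higher, and of 2 CD8 T cell genes 1. Of 3 natural killer cell genes Nkg7 alone was tested, and it was higher (2.75 and 25.2 CPM). Ncr1 (0.383 and 0.318 CPM) and Klrb1c (0.281 and 0.357 CPM) had overlapping groups and too few reads for a test. The part of all these cell types in the Trav results was not tested.

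Of the 128 segments, 44 had no read in any library, 25 had reads but too few to be tested, and 59 were tested. Most segments without reads had no sequence of their own. In 40 segments no window of 100 exon bases was unique among the chromosome 14 transcripts, and 37 of these had no read, the others at most 2. Of these 40, 38 were d or n copies. HTSeq does not count reads with several alignments in its usual mode, and the mode used here is not stated. The counts describe segments that can be told apart, and the levels of identical copies were not analysed here. The segments of natural killer T cells are an example, printed here because the copies share their sequence and had few reads. How far the few reads come from shared sequence or from few such cells was not tested. The aligned last coding bases of Trav11, the V segment of the invariant NKT receptor, and its copy Trav11d had 0 mismatches, with the annotated end of Trav11d lying 1 base earlier:
Trav11 (chr14:53519740-53519859): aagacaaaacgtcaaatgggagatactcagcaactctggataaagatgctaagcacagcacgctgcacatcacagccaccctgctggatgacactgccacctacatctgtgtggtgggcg
Trav11d (chr14:52824793-52824912): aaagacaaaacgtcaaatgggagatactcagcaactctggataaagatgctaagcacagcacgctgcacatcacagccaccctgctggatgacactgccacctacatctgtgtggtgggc
Trav11 had 2 reads, both in Satb1 cKO replicate 1, and Trav11d had 1 read, in Satb1 cKO replicate 2. Neither was tested. Of the 3 other NKT cell markers listed none was tested, and their summed level was 0.518 to 0.603 CPM in control and 0.301 to 1.21 CPM in Satb1 cKO.

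One library stood apart in a stretch of the array. Satb1 cKO replicate 1 had 3 reads over the 14 segments from Trav13n-1 to Trav8d-2 (14, 53042428 to 53162910, 1058 to 1178 kb from Trac), while Satb1 cKO replicates 2 and 3 had 47 and 45 reads and control replicates 144, 104 and 122. As a share of Trav reads this was 0.122% (95% exact binomial interval 0.0252 to 0.356%, which covers counting error only) against 2.03 and 2.00% in the other Satb1 cKO libraries and 4.68 to 5.56% in control. Its 3 reads all fell on Trav6n-5, in which 21.3% of windows were unique, and the other 13 segments had none. Segments within 200 kb on the side nearer to Trac had 80, 75 and 87 reads in Satb1 cKO replicates 1, 2 and 3, and 167, 101 and 113 in control. Those within 200 kb on the farther side had 10, 3 and 3 reads in Satb1 cKO and 18, 10 and 13 in control. Of genes with 0 reads in 1 library and at least 3 in each other library, 20 were found for Satb1 cKO replicate 1, of which 5 were Trav segments. The other libraries had 14 to 36 such genes, with 0 Trav segments. The stretch was found after the values were seen, and its ends were set at segments with 0 reads in this library and reads in the others. The nearest segments outside it with reads in this library were Trav9n-4 at 925 kb (20 reads) and Trav13d-1 at 1369 kb (10 reads). Almost all segments between these and the stretch had no read in any library, so where the lack of reads begins and ends is not resolved. Its cause was not tested.

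**Figure D1:**
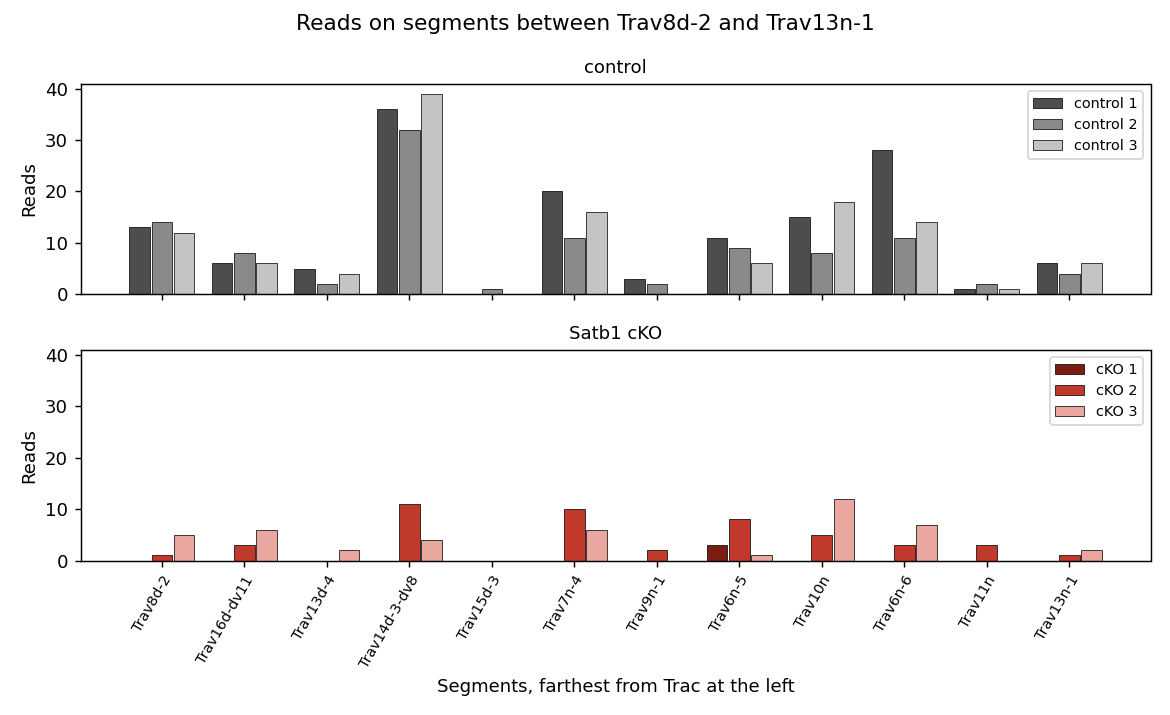
Reads (y axis, not scaled to library size) on the 12 segments between Trav8d-2 and Trav13n-1 that had any read, ordered with the farthest from Trac at the left; upper panel, the 3 control libraries; lower panel, the 3 Satb1 cKO libraries. Satb1 cKO replicate 1 shows a bar at Trav6n-5 only, of 3 reads, while replicates 2 and 3 have reads on 10 and 9 of the segments.

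The summed level of the Trav array was slightly lower in Satb1 cKO, and its reads came from nearer to Trac. The sum over all segments was 151, 141 and 142 CPM in control and 129, 132 and 135 CPM in Satb1 cKO, a ratio of 0.913. The groups did not overlap. Trac itself fell by 0.20 on the log2 scale (SE 0.040), and per Trac read the order turned. There were 0.519, 0.515 and 0.498 Trav reads per Trac read in control and 0.531, 0.526 and 0.549 in Satb1 cKO. When the 10 segments shared with the delta chain were left out, this difference changed sign, from 0.0252 to -0.0155.

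Position along the array separated the groups by more than the spread between libraries. The mean distance of a Trav read from Trac was 827, 831 and 827 kb in control and 696, 699 and 696 kb in Satb1 cKO, a difference of -131 kb. Without the stretch nearly without reads in Satb1 cKO replicate 1, the difference was -121 kb. In every Satb1 cKO library the average read came from nearer to Trac than in any control library. The 32 segments nearest to Trac held 41.1, 39.6 and 40.3% of Trav reads in control and 60.5, 60.3 and 60.4% in Satb1 cKO. The 32 farthest held 18.0, 17.5 and 17.2% in control and 11, 10.1 and 9.53% in Satb1 cKO. Neither share overlapped between groups. These values were measured without a test, since the position of the segments was chosen with earlier results known.

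Windows of 250 kb resolved the change. From 250 to 500 kb, the window of Trav19, Trav17, Trav16 and Trav14-3, the share of Trav reads was 10.5, 8.84 and 9.20% in control and 18.9, 18.9 and 19.6% in Satb1 cKO. From 500 to 750 kb, which holds Trav4-4-dv10, it was 44.6, 44.8 and 44.2% in control and 54.7, 54.4 and 54.5% in Satb1 cKO. Both windows held a larger share in every Satb1 cKO library. Beyond 750 kb every window held a smaller share in every Satb1 cKO library than in any control library. From 750 to 1000 kb it was 22.1, 23.9 and 23.8% in control and 15.3, 14.5 and 14.4% in Satb1 cKO. From 1250 to 1500 kb it was 11.2, 10.2 and 11.3% and 7.98, 7.08 and 6.37%. From 1500 to 1750 kb it was 5.92, 6.61 and 5.28% in control against 2.89, 2.85 and 2.81% in Satb1 cKO, the window of Trav2 and Trav7-1. The window from 1000 to 1250 kb contains the stretch nearly without reads in Satb1 cKO replicate 1. It held 4.75, 4.94 and 5.60% in control and 2.03 and 2.00% in Satb1 cKO replicates 2 and 3.

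**Figure D2:**
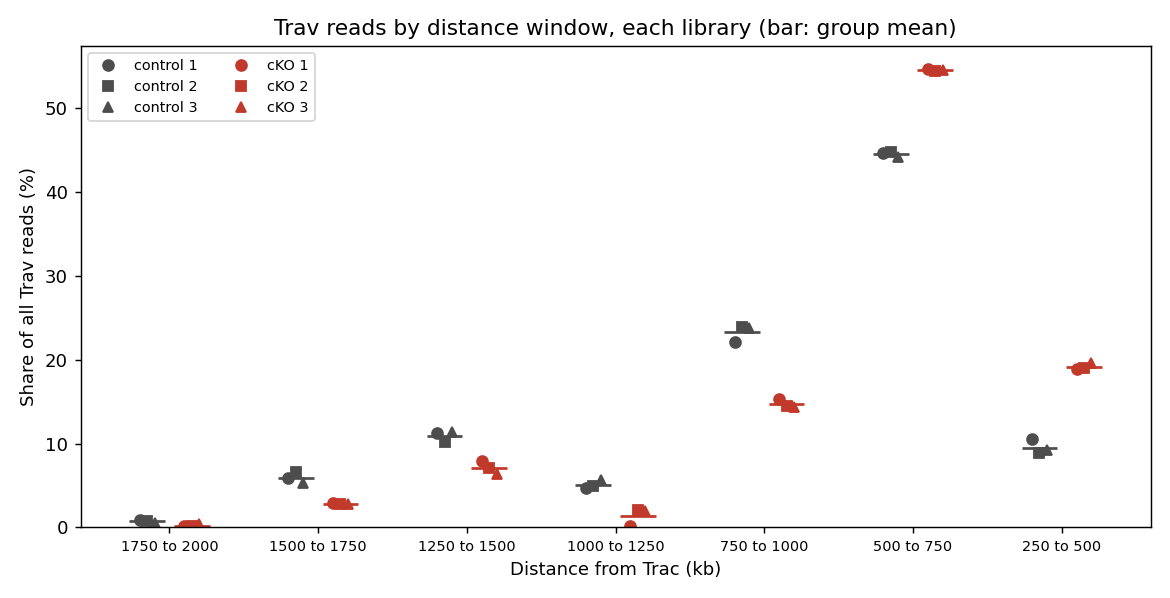
Share of all Trav reads (y axis, percent) by distance from Trac in windows of 250 kb (x axis, farthest at the left), with 1 point per library, control in grey and Satb1 cKO in red, and bars at the group means. Satb1 cKO points lie above control in the 2 windows from 250 to 750 kb and below control in the windows farther out; the window nearest to Trac, with 2 reads on Trav23, is not drawn.

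Of the 59 tested segments, 8 were called higher and 19 lower in Satb1 cKO (edgeR quasi-likelihood fit, adjusted p under 0.05 by Benjamini-Hochberg over the 13364 genes tested). Together these were 45.8% of the tested segments, close to the 42.3% called among all genes, so the number of calls did not set the segments apart. By direction, 21.6% of all genes were called higher and 20.7% lower. The calls of the segments leaned towards lower, while those of all genes were near even. The groups did not overlap for 12 of the 59 tested segments above and 24 of the 59 below. Of all genes this held for 27% above and 26.5% below, or 53.4% either way. The median log2 fold change was -0.41 in the segments and 0.0034 in all genes, and the median absolute change 0.72 and 0.22. Few reads lay on each segment, with a median of 1.73 CPM against 23.1 CPM over all genes, neither scaled to length. Scaled to reads of CD3 and T cell receptor constant genes, which moved the median of all genes by 0.28, 15 segments were called higher and 13 lower, and of all genes 53.1% higher and 7.12% lower.

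The calls were ordered by position. All 8 segments called higher lay between 375 and 536 kb from Trac, and all 19 called lower lay between 629 and 1792 kb. Nearer than the first segment called lower, Trav9-2, 19 segments were tested and all 19 had a log2 fold change above 0. From Trav9-2 outwards 40 were tested and 38 had one below 0. This dividing point was taken from the calls themselves, so no segment called lower could lie on the nearer side. Spearman's rho between distance and log2 fold change was -0.83 over the 59 segments, and -0.86 over the 54 outside the stretch. This describes points that share the same 6 libraries and is not a test over independent samples. The nearest segment called lower was Trav9-2 under every scaling, filter and left-out library tried. The farthest called higher lay at 536 or 544 kb, except under the CD3 and receptor scaling, where Trav13-1 at 675 kb was called higher.

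**Figure D3:**
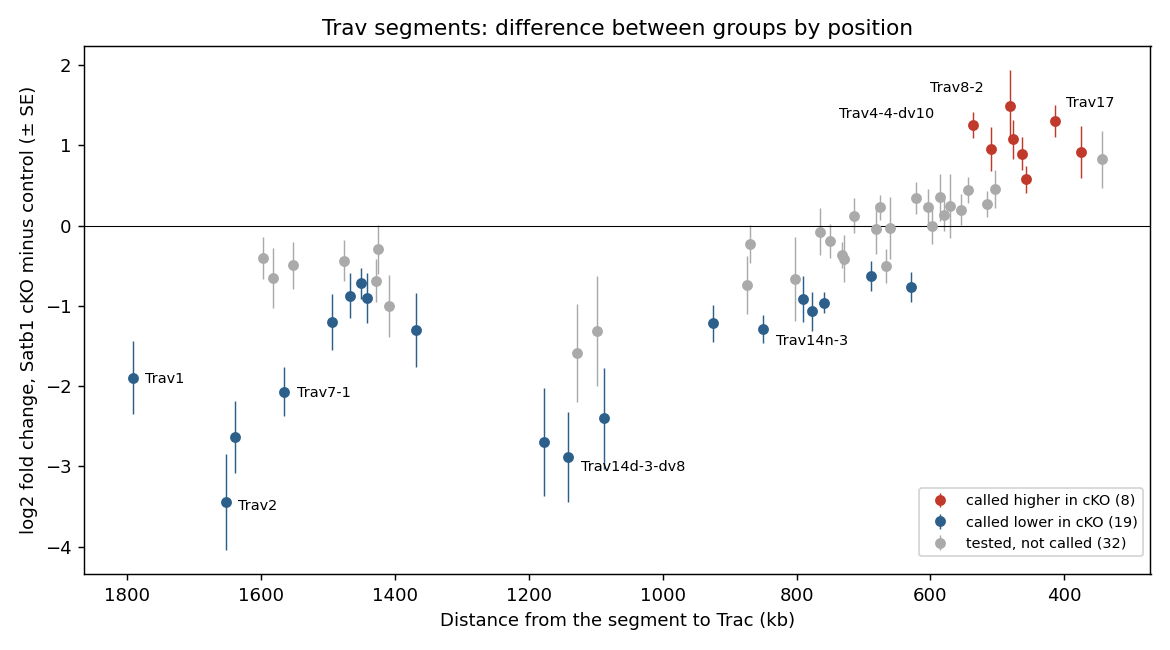
Log2 fold change, Satb1 cKO minus control, with its SE (y axis), of the 59 tested Trav segments by distance from Trac in kb (x axis, farthest at the left); red points were called higher, blue lower, grey not called. All red points lie between 375 and 536 kb and all blue points at 629 kb or farther.

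Among the segments nearest to Trac, Trav17 and Trav4-4-dv10 rose most clearly. Trav17 (ENSMUSG00000096397.7, 14, 53806639 to 53807115, 413 kb from Trac), the single member of its family, stood at 1.97, 1.74 and 1.42 CPM in control and 3.83, 4.74 and 4.22 CPM in Satb1 cKO. Every Satb1 cKO library lay above every control library, with a log2 fold change of 1.30 (SE 0.20, adjusted p = 0.000389). All of its windows were unique.

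Trav4-4-dv10 (ENSMUSG00000096096.3, 14, 53683647 to 53684177, 536 kb), which can also join delta chain segments, had 86, 55 and 60 reads in control and 213, 162 and 129 in Satb1 cKO. In CPM it rose from 3.93 ± 0.273 to 9.40 ± 1.70 (log2 fold change 1.25, SE 0.16, adjusted p = 0.000104), with no overlap between groups. In Satb1 cKO it had the highest mean level per length of all segments, at 26.0 CPM per kb of exon, against 10.9 in control. Length was counted over all exon bases, although only 77.9% of the windows of Trav4-4-dv10 were unique. Trav4-4-dv10 was also the farthest of the 8 segments called higher. Next to it Trav9-4 at 544 kb had 4.03 ± 0.398 and 5.48 ± 0.815 CPM and was not called (adjusted p = 0.0527).

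Trav16 (14, 53743104 to 53743705, 477 kb) stood at 2.56, 1.27 and 1.88 CPM in control and 3.83, 3.71 and 4.76 CPM in Satb1 cKO. The groups were apart, although control replicate 2 lay well under the other controls (log2 fold change 1.07, SE 0.25, adjusted p = 0.00461). Trav13-4-dv7 (463 kb), shared with the delta chain, stood at 2.06, 1.74 and 1.49 CPM in control and 3.15, 3.20 and 3.62 CPM in Satb1 cKO, again without overlap (0.89, SE 0.21, adjusted p = 0.00491). These 4 segments, Trav17, Trav4-4-dv10, Trav16 and Trav13-4-dv7, were the segments called higher that stayed called when each library was left out in turn.

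The other 4 rises depended on single libraries. Trav14-3 (457 kb), one of the most abundant segments, had 4.92, 4.29 and 4.98 CPM in control and 6.98, 5.83 and 8.44 CPM in Satb1 cKO (log2 fold change 0.58, SE 0.17, adjusted p = 0.0154), but its adjusted p was 0.0571 without control replicate 2 and 0.0732 without Satb1 cKO replicate 3. Trav6-7-dv9 (510 kb), shared with the delta chain, stood at 2.51, 1.27 and 3.17 CPM in control and 4.04, 5.48 and 4.10 CPM in Satb1 cKO, with an adjusted p of 0.015 and of 0.0602 without Satb1 cKO replicate 2. For both segments all Satb1 cKO values lay above all control values. Trav8-2 (482 kb), the only tested pseudogene, had 9, 6 and 8 reads in control and 13, 36 and 19 in Satb1 cKO. Its adjusted p of 0.0198 became 0.102 without Satb1 cKO replicate 2, the library with its highest count, and 0.0649 without control replicate 2. Trav19 (375 kb), the nearest segment called, had 22, 12 and 14 reads in control and 39, 19 and 37 in Satb1 cKO (adjusted p = 0.0404), and in CPM the lowest Satb1 cKO library (1.09) lay just above the highest control (1.08). It lost its call in 4 of the 6 leave-one-out fits, with adjusted p from 0.105 to 0.151, and in DESeq2 (0.126).

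Still nearer to Trac the segments were scarce. Trav21-dv12 at 344 kb, the nearest tested segment, stood at 1.38 ± 0.457 CPM in control and 2.48 ± 1.05 CPM in Satb1 cKO with overlapping libraries, and was not called (log2 fold change 0.83, adjusted p = 0.0822). It was chosen after its values were seen. Trav23 at 243 kb, the segment closest to Trac, had 1 read in control replicate 3 and 1 in Satb1 cKO replicate 2, so a difference was not detectable at this depth.

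Between 554 and 732 kb from Trac, 4 of 5 named segments did not pass the test, and Trav9-2 fell. Trav3-3, Trav14-2 and Trav9-2 are among the 32 segments nearest to Trac. Trav3-3 (554 kb) had 4.88 ± 0.290 CPM in control and 5.64 ± 1.49 CPM in Satb1 cKO, and Trav14-2 (579 kb) 4.67 ± 1.15 and 5.15 ± 0.638 CPM. Trav13-1 (675 kb) stood at 3.71 ± 0.264 and 4.35 ± 0.0967 CPM and Trav9-1 (732 kb) at 4.76 ± 0.480 and 3.70 ± 0.262 CPM. None of these 4 was called, with adjusted p from 0.0896 to 0.623. Leaving out 1 library turned the sign for Trav3-3 (-0.035 without Satb1 cKO replicate 3) and Trav14-2 (-0.054 without control replicate 3). Trav9-2 (ENSMUSG00000094966.2, 14, 53590857 to 53591514, 629 kb), between them, stood at 5.31, 4.22 and 6.08 CPM in control and 3.04, 3.37 and 2.77 CPM in Satb1 cKO. All Satb1 cKO libraries lay below the controls, and Trav9-2 fell by 0.77 on the log2 scale (SE 0.18, adjusted p = 0.00591).

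Trav7-4 and Trav14n-3, which had the highest mean levels per length in control at 18.5 and 17 CPM per kb of exon, both fell. Trav7-4 (ENSMUSG00000094766.3, 14, 53461099 to 53461738, 759 kb) had 161, 125 and 136 reads in control and 78, 82 and 68 in Satb1 cKO. In CPM this was 8.37 ± 0.444 and 4.29 ± 0.341, with a wide gap between groups (log2 fold change -0.96, SE 0.13, adjusted p = 0.000183). Trav14n-3 (ENSMUSG00000076824.3, 14, 53370077 to 53370575, 850 kb) had 116, 95 and 98 reads in control and 39, 50 and 44 in Satb1 cKO, or 6.14 ± 0.378 and 2.52 ± 0.422 CPM (-1.28, SE 0.17, adjusted p = 0.000145). Trav7-3 (777 kb) fell from 2.17 ± 0.200 to 1.04 ± 0.0447 CPM (-1.07, SE 0.24) and Trav9n-4 (925 kb) from 3.38 ± 0.197 to 1.46 ± 0.362 CPM (-1.21, SE 0.23). Of the windows, 56.8% were unique in Trav7-4, 77.1% in Trav14n-3, 38.0% in Trav7-3 and 24.0% in Trav9n-4. Whether reads from the rest were counted is not stated. Levels per length were divided by all exon bases, so they are not fully comparable between segments that differ in uniqueness.

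At the far end of the array, Trav7-1, Trav2 and Trav1 fell. Trav7-1 (ENSMUSG00000104620.1, 14, 52654817 to 52655328, 1565 kb) had 46, 42 and 33 reads in control and 7, 13 and 10 in Satb1 cKO. It fell by 2.07 on the log2 scale (SE 0.31, adjusted p = 0.000276). Trav2 (ENSMUSG00000076759.3, 14, 52567198 to 52568051, 1652 kb) had 18, 23 and 14 reads in control and 3, 0 and 2 in Satb1 cKO. It showed the lowest fitted log2 fold change of all tested segments, -3.45 (SE 0.60, adjusted p = 0.000782), and -4.06 without Satb1 cKO replicate 1. The most distant segment, Trav1 (ENSMUSG00000076758.6, 14, 52427928 to 52428876, 1792 kb), is the V segment of the invariant chain of mucosal-associated invariant T cells. It had 28, 15 and 12 reads in control and 3, 4 and 8 in Satb1 cKO (-1.89, SE 0.45, adjusted p = 0.0057). Of 3 genes listed for MAIT cells, 2 were tested. Il18r1 was called higher (8.44 ± 2.44 and 19.6 ± 1.47 CPM), and Mr1 was not called (4.05 ± 0.609 and 4.09 ± 0.588 CPM). Zbtb16, at 0.191 and 0.298 CPM, was not tested. The summed level of the list was 9.59 to 15.5 CPM in control and 23.1 to 25.1 CPM in Satb1 cKO, and Il18r1 supplied most of the rise. The part of MAIT cells in the value of Trav1 was not tested. For Trav7-1, Trav2 and Trav1 all windows were unique and the groups did not overlap in CPM. Trav3-1 at 1639 kb, which the rule for named segments does not take because its mean stays under 1 CPM, had 18, 18 and 13 reads in control and 4, 2 and 2 in Satb1 cKO and was also called lower. Other distant segments were not called: Trav6-1, Trav6-2 and Trav5-1, chosen after their values were seen, lie between 1553 and 1597 kb and had log2 fold changes of -0.65, -0.50 and -0.41 that did not pass the test.

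Of the 19 segments called lower, 3 come from the stretch nearly without reads in Satb1 cKO replicate 1. Trav14d-3-dv8 (ENSMUSG00000094619.2, 14, 53078452 to 53079045, 1141 kb), shared with the delta chain, had 36, 32 and 39 reads in control and 0, 11 and 4 in Satb1 cKO. Its log2 fold change of -2.88 (SE 0.56, adjusted p = 0.00165) was -2.26 without Satb1 cKO replicate 1 (adjusted p = 0.00206) and -4.16 without Satb1 cKO replicate 2. Trav6n-6 (1087 kb) had 28, 11 and 14 reads in control and 0, 3 and 7 in Satb1 cKO (-2.40, SE 0.63, adjusted p = 0.00971), and -1.78 without Satb1 cKO replicate 1 (adjusted p = 0.0234) and -3.54 without Satb1 cKO replicate 3. Both segments thus stayed lower in the libraries that have reads there. Trav8d-2, outside the rule for named segments, had 13, 14 and 12 reads and 0, 1 and 5. Its log2 fold change was -2.70, and -2.09 without Satb1 cKO replicate 1 and -4.50 without Satb1 cKO replicate 3. Trav6d-3 (1494 kb), of which 2.66% of windows were unique, fell from 1.01 ± 0.0835 to 0.438 ± 0.144 CPM (-1.20, adjusted p = 0.0176). It lost its call without control replicate 3, Satb1 cKO replicate 1 or Satb1 cKO replicate 2 (adjusted p from 0.0620 to 0.0677) and in DESeq2 (0.128).

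**Figure D4:**
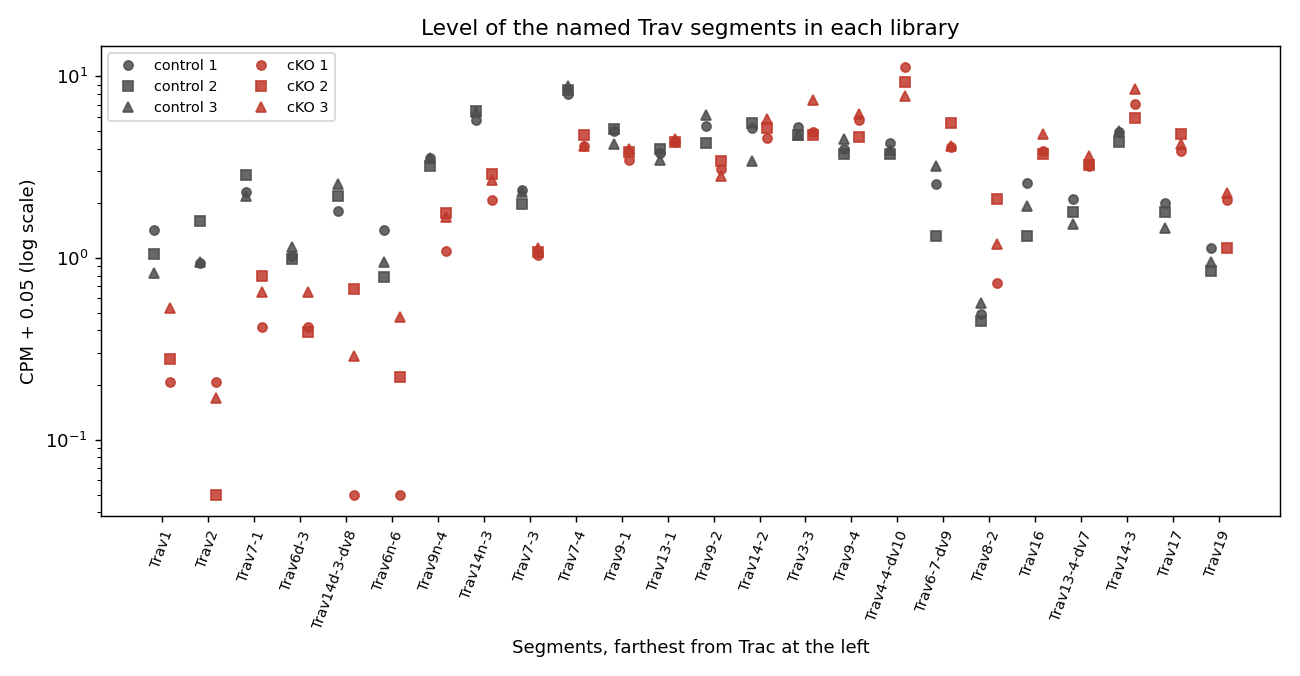
Level in CPM plus 0.05 (y axis, log scale) of the 24 named and tested segments in each library (control grey, Satb1 cKO red, marker shape by replicate number), ordered with the farthest from Trac at the left. Red points lie below grey ones at the left of the plot and above them at the right, and points at 0.05 are libraries with 0 reads.

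In 4 families, Trav6, Trav8, Trav13 and Trav14, 1 member was called higher and at least 1 lower, and in each the one called higher lay nearest to Trac. The Trav14 family was chosen for printing after its values were seen. The last 180 coding bases of its 5 tested members are given here, with every base that differs from Trav14-3 in capitals (5′ to 3′, plus strand, GENCODE M21, GRCm38):
Trav14-3 (chr14:53763515-53763694): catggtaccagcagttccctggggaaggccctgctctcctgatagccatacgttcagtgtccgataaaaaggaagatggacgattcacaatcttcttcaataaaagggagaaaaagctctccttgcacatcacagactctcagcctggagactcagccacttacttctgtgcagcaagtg
Trav14-2 (chr14:53641046-53641225): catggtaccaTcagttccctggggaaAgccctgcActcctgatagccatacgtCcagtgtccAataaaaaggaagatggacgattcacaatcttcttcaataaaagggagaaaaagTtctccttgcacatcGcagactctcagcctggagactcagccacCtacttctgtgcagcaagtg
Trav14-1 (chr14:53554379-53554558): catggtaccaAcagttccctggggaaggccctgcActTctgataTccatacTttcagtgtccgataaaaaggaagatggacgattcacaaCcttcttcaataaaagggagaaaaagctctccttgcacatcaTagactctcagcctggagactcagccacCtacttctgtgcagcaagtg
Trav14n-3 (chr14:53370396-53370575): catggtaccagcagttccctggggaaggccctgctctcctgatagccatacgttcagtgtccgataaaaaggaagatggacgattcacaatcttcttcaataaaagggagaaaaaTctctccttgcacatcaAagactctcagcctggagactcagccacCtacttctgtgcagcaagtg
Trav14d-3-dv8 (chr14:53078866-53079045): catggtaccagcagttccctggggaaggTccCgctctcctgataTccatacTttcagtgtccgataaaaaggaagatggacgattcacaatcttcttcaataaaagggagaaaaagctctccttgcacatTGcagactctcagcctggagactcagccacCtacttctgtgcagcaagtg
The number of mismatches was 8 in Trav14-2, 8 in Trav14-1, 3 in Trav14n-3 and 7 in Trav14d-3-dv8. The log2 fold change was 0.58 in Trav14-3 at 457 kb, 0.13 in Trav14-2 at 579 kb and -0.50 in Trav14-1 at 666 kb. It was -1.28 in Trav14n-3 at 850 kb and -2.88 in Trav14d-3-dv8 at 1141 kb. Over the whole last exon the identity to Trav14-3 was 92.6% in Trav14-2, 90.6% in Trav14-1, 98.1% in Trav14n-3 and 97.4% in Trav14d-3-dv8. In these 5 members the values fell in the order of distance from Trac. The 3 members of the Trav10 family, chosen after their values were seen, are 98.3 to 99.3% identical to each other, were not called and did not keep that order: Trav10 at 714 kb had 0.12, Trav10n at 1098 kb, inside the stretch, -1.31 and Trav10d at 1409 kb -1.002. Trav14n-3, the copy with the fewest mismatches to Trav14-3, was called lower where Trav14-3 was called higher. Over the family the summed level was 21.5 ± 1.31 CPM in control and 17.7 ± 1.56 CPM in Satb1 cKO.

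In the Trav7 family 8 of 13 members were tested, 0 were called higher and 5 lower, and the summed level fell from 25.4, 25.2 and 25.7 CPM to 14.3, 15.9 and 14.1 CPM, a ratio of 0.581. Its nearest member Trav7-6 at 503 kb had a log2 fold change of 0.45 (not called), and its farthest, Trav7-1, -2.07. The Trav6 family (15 members, 10 tested, 1 higher and 4 lower) ran from 0.96 in Trav6-7-dv9 to -2.40 in Trav6n-6, and its sum had a ratio of 0.811. The Trav9 family (11 members, 5 tested, 0 higher and 2 lower) ran from 0.44 in Trav9-4 to -1.21 in Trav9n-4, with a ratio of 0.772. For comparison, 21.6% of all genes tested were called higher and 20.7% lower. The change within Trav6, Trav7 and Trav9 did not fall steadily with distance: Trav6d-5 at 1425 kb had -0.30 and Trav7d-3 at 1476 kb -0.44. The Trav4 family moved the other way as a sum, from 8.41, 6.70 and 7.44 CPM to 15, 13.8 and 11.2 CPM, a ratio of 1.77, and Trav4-4-dv10 supplied most of it. Of the 23 families, the summed level lay above control in every Satb1 cKO library in 4 (Trav4, Trav13, Trav17 and Trav19) and below in 7 (Trav1, Trav2, Trav6, Trav7, Trav8, Trav9 and Trav14), and it overlapped in 12. With the stretch nearly without reads in Satb1 cKO replicate 1 left out, the ratio was 0.862 for Trav6 and 0.59 for Trav7. It was 0.826 for Trav8 and 0.899 for Trav14. The groups then overlapped for Trav14, and for Trav16, with a ratio of 1.40, they no longer did.

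**Figure D5:**
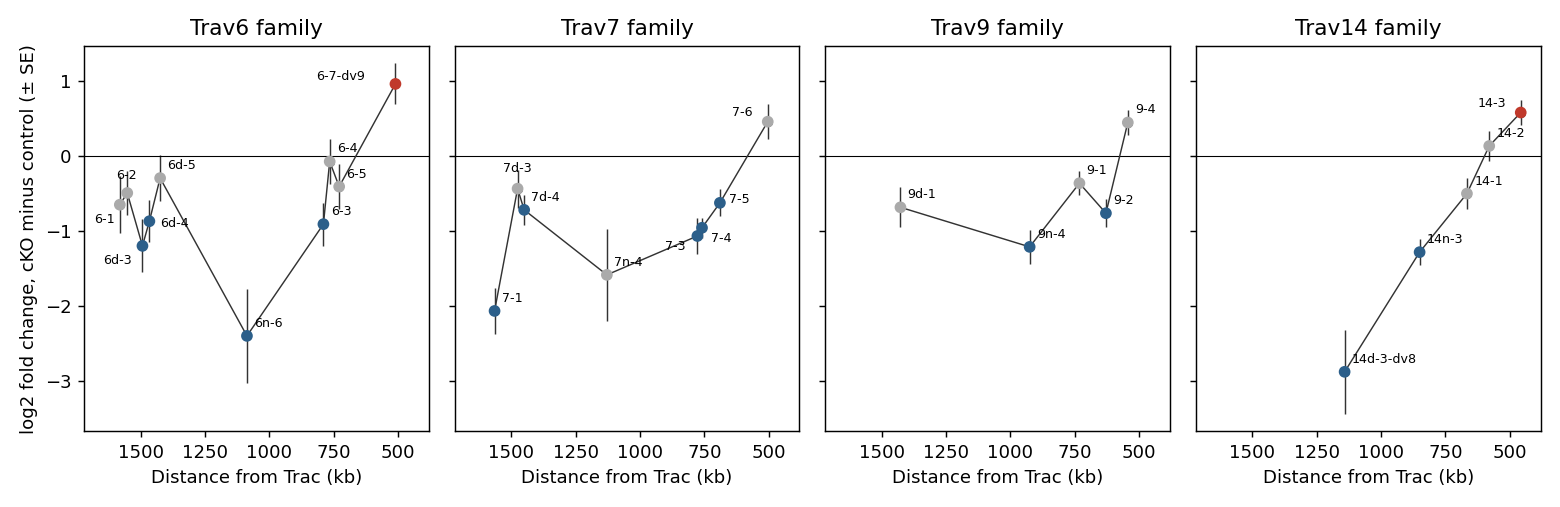
Log2 fold change, Satb1 cKO minus control, with its SE (y axis) by distance from Trac in kb (x axis, farthest at the left) for the tested members of the Trav6, Trav7, Trav9 and Trav14 families; lines join neighbours, and red, blue and grey points were called higher, called lower and not called. In each family the member nearest to Trac is the one with the highest value, from 0.44 in Trav9-4 to 0.96 in Trav6-7-dv9.

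The duplicated blocks lie away from Trac, and their segments were lower. Segments with a d in the symbol (39, of which 11 were tested, 0 higher and 7 lower) summed to 20.2, 18.2 and 20.3 CPM in control and 10.5, 10.2 and 9.64 CPM in Satb1 cKO, a ratio of 0.518. Those with an n (34, 7 tested, 0 higher and 3 lower) summed to 18.8, 16.8 and 18.1 CPM and 6.82, 9.31 and 10.1 CPM, a ratio of 0.488. Both sums lay below control in each Satb1 cKO library. This also held with the stretch nearly without reads in Satb1 cKO replicate 1 left out, where the ratios were 0.594 and 0.530. Segments with neither letter (55, 41 tested, 8 higher and 9 lower) summed to 107 ± 4.34 and 113 ± 2.09 CPM, and these values overlapped between groups. Copy letter and distance cannot be told apart for most of these, since d copies lie from 1138 kb outwards and n copies from 845 to 1129 kb. Among the 36 tested segments in which at least 80% of windows were unique, 4 were called higher and 11 lower. All counts called in this paragraph stand against 21.6% of all genes tested called higher and 20.7% lower.

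Segments shared with the delta chain rose as a sum. Of the 10, 7 were tested, 3 were higher (Trav4-4-dv10, Trav13-4-dv7 and Trav6-7-dv9) and 1 lower (Trav14d-3-dv8). Among all genes tested, 21.6% were called higher and 20.7% lower. Together they held 13.6, 12.3 and 14.4 CPM in control and 22.8, 23.7 and 18.7 CPM in Satb1 cKO, a ratio of 1.62 without overlap. All 3 that rose lie between 463 and 536 kb from Trac, and the one that fell lies at 1141 kb. Beside this, transcripts that mark gamma-delta T cells were higher in Satb1 cKO. The delta constant gene Trdc rose from 3.97 ± 1.05 to 8.43 ± 0.889 CPM and the gamma constant gene Tcrg-C2 from 1.47 ± 0.194 to 5.62 ± 1.63 CPM. Over a list of 6 such genes, 4 of 5 tested were called higher, and their sum was 6.99 to 10.9 CPM in control and 19.7 to 25.2 CPM in Satb1 cKO. Their part in the rise of the shared segments was not tested. The stretch nearly without reads in Satb1 cKO replicate 1 holds 2 shared segments. With it left out, the ratio for the shared segments was 1.96, and the groups again did not overlap.

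The use of segments was less even in Satb1 cKO. The effective number of segments, the exponential of the Shannon entropy of read shares, was 52.9, 50.6 and 51.7 in control and 41.8, 44.7 and 43.4 in Satb1 cKO. The groups did not overlap. The difference of -8.42 was -4.92 with the stretch nearly without reads in Satb1 cKO replicate 1 left out.

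Other receptor V segments and genes of the recombination reaction give the surroundings of these values. The counts called here and in the next paragraph stand against 21.6% of all genes tested called higher and 20.7% lower. Of 35 beta chain V segments (Trbv), 19 were tested, 0 were called higher and 9 lower, with a median log2 fold change of -0.28 and summed levels of 219 to 225 CPM in control and 164 to 167 CPM in Satb1 cKO. Trbv3 fell the most, from 28.4 ± 2.88 to 11.1 ± 0.143 CPM. Of 6 segments named Trdv, Trdv1 alone was tested and rose from 0.917 ± 0.332 to 1.82 ± 0.458 CPM. Among constant and CD3 chains, 4 of 11 tested genes were higher, all of them delta or gamma constant genes, and 5 lower: Trac, Trbc1, Trbc2, Cd3d and Cd247. Trbc2 fell by 0.42 and Cd247, the zeta chain, by 0.52 on the log2 scale.

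Transcripts of the recombinase were scarce. Rag2 had 0 reads in every library, and Rag1 stood at 0.136 ± 0.0643 and 0.212 ± 0.0993 CPM and was not tested. Of 10 tested recombination and end-joining genes, 0 were higher and 4 lower: Prkdc, the DNA-dependent protein kinase, fell from 102 ± 4.23 to 65.5 ± 2.18 CPM and Hmgb2, a DNA-bending cofactor, from 229 ± 19.6 to 143 ± 7.81 CPM. Xrcc4 and Hmgb1 fell by 0.27 and 0.13 on the log2 scale. Of the 11 transcription and chromatin factors listed as acting on the alpha locus, all of them tested, 6 were lower. Among all genes tested 20.7% were called lower. Lef1 fell from 300 ± 13.3 to 151 ± 6.40 CPM and Tcf7 from 841 ± 38.1 to 539 ± 12.3 CPM, both factors that bind the alpha enhancer. Ets1, E2f1, Runx1 and the cohesin subunit Rad21 were the other 4 that fell, and Ctcf, at 211 ± 7.73 and 198 ± 5.60 CPM, was not called.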

How the data were processed

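RNA libraries were prepared with a VAHTS kit, per the labels' protocols. The authors deposited raw counts, whole reads per gene and library, without normalization. Per the submitters' processing notes, STAR 2.7.3a and HTSeq 0.12.4 were used with mm10. Neither the annotation release nor the strand setting is given. Lines naming no gene were left out; reads on no feature were 7.32 to 9.50% and reads with several alignments 2.92 to 3.16% of the tables' totals.

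The count analysis used edgeR 4.0.16 (R 4.3.3): filterByExpr, TMM scaling and a quasi-likelihood fit (glmQLFit, glmQLFTest) with group as its only term over all 6 libraries, with Benjamini-Hochberg adjustment over all 13364 genes tested and a threshold of 0.05. SEs come from the coefficient and its F statistic. Groups and replicate numbers come from the sample titles. Within groups, counts differed beyond sampling noise in every pair of libraries (chi-square per degree of freedom 2.18 to 7.73), and each library counts as its own sample. Positions, biotypes and sequences come from GENCODE M21, which matched 55141 gene identifiers. Distance runs from the end of a segment to the start of Trac. Uniqueness is the percentage of 100-base exon windows found in no other chromosome 14 transcript; the transcripts stood in for the genome sequence, which was not used here.

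Named segments were the 10 of highest mean CPM; the 10 largest rises and 10 largest falls among called segments with at least 1 CPM in the higher group and no overlap; the nearest and farthest segments; Trav1, Trav11 and Trav11d; and called segments shared with the delta chain. The members, lists and rules were chosen with earlier results of these data known. A result on 1 listed gene is not reported here. Alternatives were RLE scaling, no filter, a replicate block, library sizes set to Trav reads or to CD3 and receptor constant reads, DESeq2 1.42.0, each library left out, and other sets of segments. The analysis was tested on simulated counts. False calls stayed near the nominal share when dispersions followed the fitted trend and exceeded it when each gene kept its own estimate, so adjusted p-values close to the threshold deserve caution. The trend version was added after the first simulation had been seen.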

Additional observations from a re-analysis of the deposited data

How the results depend on the processing

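Calls moved with scaling and with single libraries. Segments called higher numbered 8, against 15 with library sizes set to CD3 and receptor constant reads, 7 in DESeq2 and 5 to 9 with each library left out (5 without control replicate 2). Those called lower numbered 19, against 13 under that scaling, 14 in DESeq2 and 15 to 17 with a library left out. Outside the stretch nearly without reads in Satb1 cKO replicate 1 there were 16. Scaling to Trav reads gave 10 higher and 15 lower; it moved the median of all genes by 0.14. RLE scaling gave 8 and 19, and no filter 9 and 21 of 84 tested. With each library left out, 17 of 27 calls stayed in every fit, 4 higher and 13 lower. Leaving a library out turned the sign of Trav3-3 (log2 fold changes from -0.035 to 0.31) and Trav14-2 (-0.054 to 0.24), neither of them called; the cause was not tested.

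Replicate numbers did not pair the samples: deviations of same-numbered libraries correlated at 0.021, -0.013 and 0.028. With a replicate block 10 segments were called higher and 19 lower, and 26 of the 27 calls were kept.

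Differences between group means depended on the segments included. The order here is segments under 80% unique windows left out, delta-shared segments left out, reads per kb of exon, and the stretch nearly without reads in Satb1 cKO replicate 1 left out, the last chosen after seeing the data. The summed level (-12.6 CPM) became -4.16, -20.9, -27.9 (a sum per kb, on another scale) and -7.13, and -14.5 to -9.41 with a library left out. The level per Trac read (0.0252) reversed to -0.0155 without delta-shared segments, and became 0.0816 per kb and 0.0436 without the stretch (0.0185 to 0.0298 with a library left out). The mean distance (-131 kb) became -148, -116, -135 and -121 kb (-132 to -130.0). The share of the 32 nearest segments (20.03 percentage points) became 16.3, 16.8 and, without the stretch, 18.7 (19.7 to 20.4). That of the 32 farthest (-7.38) became -9.34 with unique segments and -8.17 without the stretch (-7.77 to -7.04). The effective number (-8.42) became -5.34, -6.12, -9.77 and -4.92 (-9.13 to -7.67). Apart from the level per Trac read, these 6 measures kept their sign in these sets and with each library left out. The summed level was also computed with RLE scaling (-12.7 CPM) but not with library sizes set to Trav, CD3 or receptor reads. Leaving out pseudogenes moved none of them beyond the spread between libraries.

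Depth limits single segments: Trav reads came to 2104 to 3075 per library, and 69 segments were not tested. The approximate 95% upper limit for a count of 0 is 3 reads, which equal 0.147 to 0.201 CPM. Uniqueness was measured against chromosome 14 transcripts instead of the genome.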
